A study of Homo sapiens with 17 samples.

Results

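MED25, MED22 and MED21 encode subunits of Mediator. Of 33 Mediator genes examined, only these 3 were listed as lower with an shRNA against MED25 or ETV4 in PC3 cells. MED25 is itself a target, and MED22 and MED21 were each listed with only 1 of the 4 shRNAs. MED22 was 1 of 32 without the target, or 3.12%, where 3.44% of annotated protein-coding genes were listed with that shRNA. MED21 was 1 of 33, or 3.03%, where 0.456% were. PC3 is a human cell line established from prostate cancer. The 3 genes were selected by symbol because they appear in the authors' deposited tables, so their decreases are described here without a test. They are 3 of the 1400 genes listed in at least 1 of the 4 tables. RNA was sequenced 7 days after early-passage cells were infected. Lentivirus carried MED25 shRNA A or MED25 shRNA B, with 3 libraries each, and a luciferase shRNA in the 3 lentiviral control libraries. Retrovirus carried ETV4 shRNA A or ETV4 shRNA B, with 3 libraries each, and a control shRNA in the 2 retroviral control libraries. The series design text calls the controls empty vector instead. Both shRNAs of a target were compared with the same controls, and the labels leave unsaid whether the replicates were separate cultures.

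Mediator is a large complex that carries signals from DNA-bound transcription factors to RNA polymerase II. Its head and middle modules contact the polymerase, its tail is bound by activators, and a separable kinase module regulates the contact. MED25 is a tail subunit whose activator-binding domain is contacted by the transactivation domains of ETV4 and its close relatives ETV1 and ETV5. ETV4 is an ETS-family transcription factor. MED22 belongs to the head module and MED21 to the middle module, where it pairs with MED7.

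Every value below is a log2 ratio of knockdown over control, or a quantity computed from such ratios. Each table lists only genes that were at least about 1.5-fold lower after knockdown. The ratios nearest 0 in the authors' deposited tables were −0.59 in all 4. A gene that is not listed may have fallen less, may have had a lower score than the authors required, or may have risen, and cannot be called unchanged. The tables carry no error per gene and no library-level values, so no spread between replicates and no depth can be given.

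MED25 (ENSG00000104973, chromosome 19) was listed with both of its shRNAs and with neither ETV4 shRNA. The authors' deposited table of shRNA A had MED25 at −0.96, which leaves 51.6% of the control level. That of shRNA B, also the authors' deposited table, had MED25 at −1.71, which leaves 30.5%. The transcript level that remained was therefore 1.69 times as high with shRNA A as with shRNA B. MED25 helped to set the direction in which the ratios are read, so its decrease is no independent check of that direction.

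**Figure D1:**
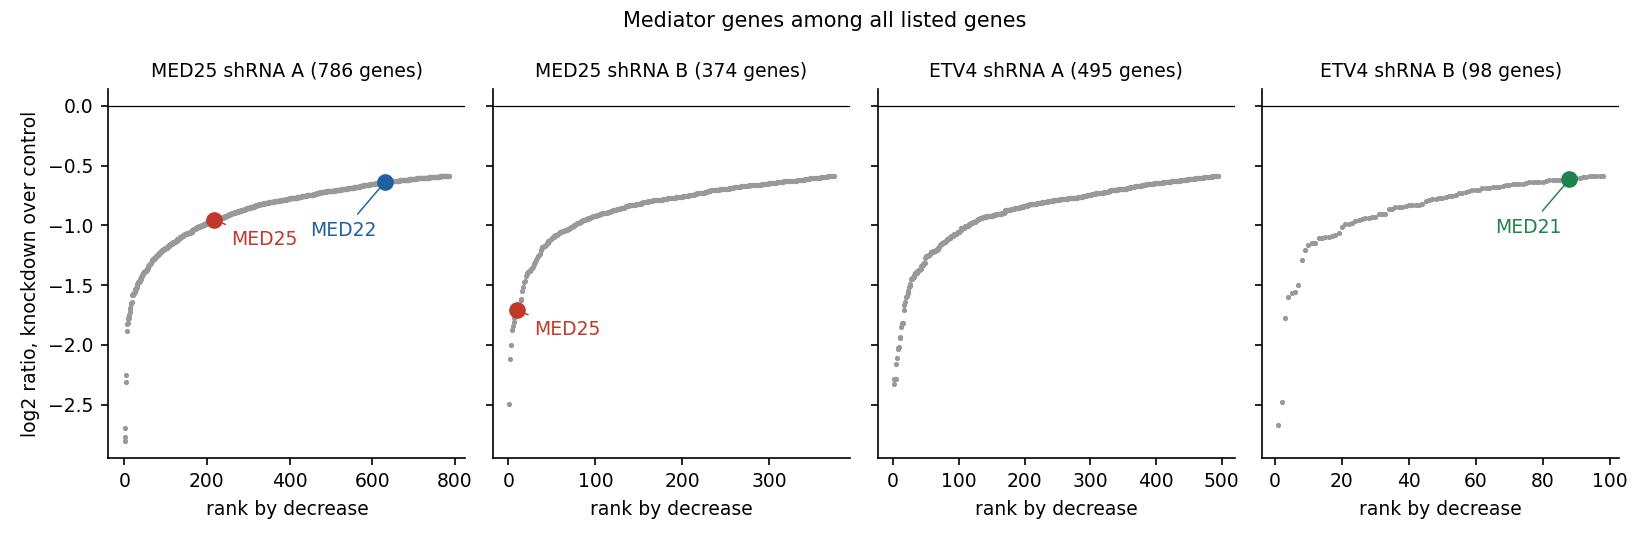
Log2 ratio of knockdown over control against rank by decrease for every gene of each of the 4 deposited tables (grey points), with MED25, MED22 and MED21 coloured where they are listed. MED25 sits at rank 218 of 786 with MED25 shRNA A and at rank 10 of 374 with MED25 shRNA B, while MED22 and MED21 lie on the shallow part of their curves near the listing limit.

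MED25 held very different places in the 2 tables of its own shRNAs. It ranked 218 of 786 by decrease with shRNA A, where 27.7% of the authors' deposited table was at or below its ratio. Its rank was 10 of 374 with shRNA B, where 2.67% of the authors' deposited table was at or below it. With shRNA A its neighbours in rank were TIMP4, a metalloproteinase inhibitor, at −0.96 and TOP1MT, the mitochondrial topoisomerase I, at −0.96, in the authors' deposited table. After shRNA B they were the cell-surface proteoglycan SDC1 at −1.73 and the antisense gene AC002456.2 at −1.71 in the authors' deposited table. The targeted transcript thus stood among the strongest decreases with shRNA B and amid the table with shRNA A.

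MED25 was also compared with the other genes listed with both of its shRNAs. These 153 genes are 19.5% of the table of shRNA A and 40.9% of the table of shRNA B. From the authors' deposited tables, MED25 was lower with shRNA B than with shRNA A by a difference of −0.76 on the log2 scale. Of the other 152 shared genes, 62 were lower with shRNA B and 90 were lower with shRNA A, and the median difference, B minus A, was 0.05. A difference of at least that size was found for 3 of the 152 in the direction of MED25 and for 6 in the other direction. The 3 were the BMP antagonist NOG, the forkhead factor FOXL1 and the AP-1 subunit JUN, with differences of −0.92, −0.88 and −0.81 computed from the authors' deposited tables. In the authors' deposited tables FOXL1 stood at −0.81 for shRNA A against −1.68 for shRNA B, and JUN at −0.60 against −1.41. Most of these shared genes were thus not lower with shRNA B, where less MED25 transcript remained. Genes listed with either shRNA alone are outside this count, and a relation to the depth of MED25 loss was not tested. Whether the shRNAs differ beyond replicate error was not tested, and both comparisons share the lentiviral control libraries.

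**Figure D2:**
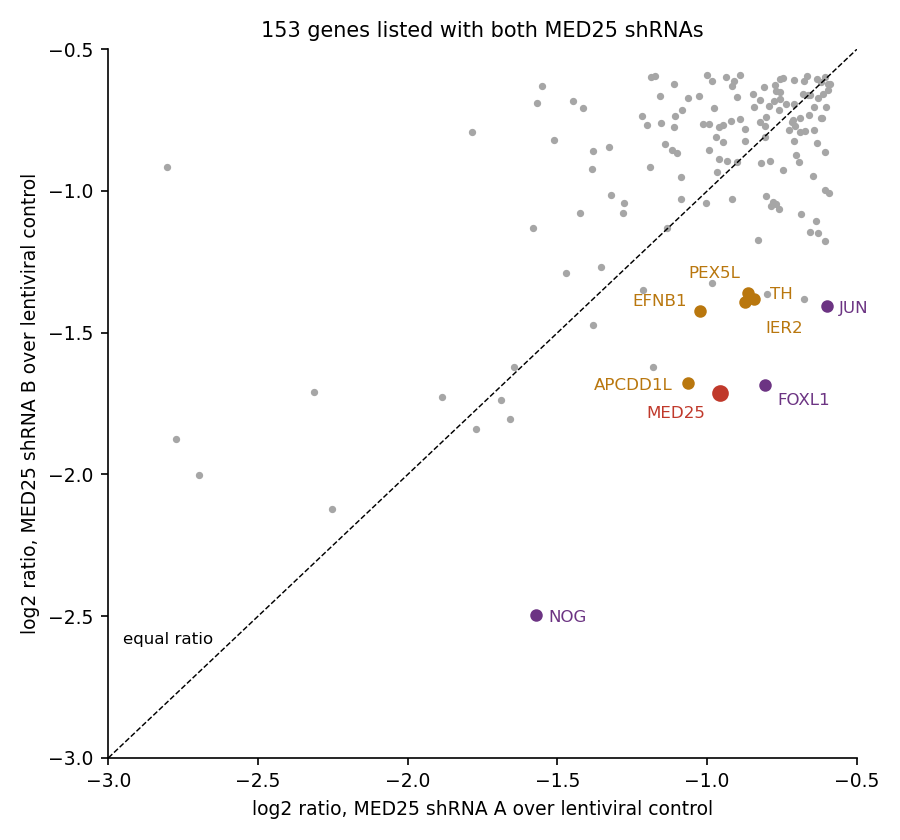
Log2 ratio with MED25 shRNA B (vertical) against the ratio with MED25 shRNA A (horizontal) for the 153 genes listed with both, each over the lentiviral control, with a dashed line of equal ratios. MED25 (red) lies well below the line, as do NOG, FOXL1 and JUN (purple), and orange marks the 5 genes closest to MED25 among the 124 others listed with neither ETV4 shRNA.

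The pair of ratios of MED25 was compared with those of the 124 other genes that were listed with both MED25 shRNAs and neither ETV4 shRNA. Another 28 of the shared genes were also listed with an ETV4 shRNA and were left out of this comparison. Closeness was the Euclidean distance over the 2 log2 ratios. The closest gene was APCDD1L, for which the authors' deposited tables gave −1.07 (A) and −1.68 (B), a distance of 0.11. The next was the ephrin ligand EFNB1, at −1.03 and −1.42 in the authors' deposited tables, at a distance of 0.30. The immediate early gene IER2 lay at a distance of 0.33, the tyrosine hydroxylase gene TH at 0.35 and PEX5L, a relative of the peroxisomal import receptor, at 0.36, computed from the authors' deposited tables. Of the 28 genes left out, FOXL1, at a distance of 0.15, and the fibronectin gene FN1, at 0.24, were nearer to MED25 than EFNB1 was, computed from the authors' deposited tables.

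For ETV4, the other targeted gene, shRNA B also left less transcript, where the authors' deposited tables gave −2.67, against −1.94 for shRNA A. Its difference of −0.73 was the most negative of the 57 genes listed with both ETV4 shRNAs. MED25 ranked 4 of 153 by the same measure. For ETV4 as for MED25, most of the other shared genes were lower with shRNA A, at 41 of 56. The 57 shared genes are 11.5% of the table of ETV4 shRNA A and 58.2% of that of ETV4 shRNA B. Genes listed with either ETV4 shRNA alone are outside this count. Both ETV4 comparisons share the retroviral control libraries, and a difference between the ETV4 shRNAs was not tested.

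In the GENCODE annotation the 3′ part of MED25 overlaps PTOV1-AS1 on the opposite strand. An annotated transcript of PTOV1-AS1 matches MED25 transcripts over 1439 bases. The sources used here do not give whether counting used strand, so reads in the overlap could belong to either gene. PTOV1, a relative of MED25 that shares its activator-binding domain, lies 10352 bases beyond MED25. A stretch of 158 bases of MED25 transcripts was 92.4% identical to PTOV1. Neither PTOV1 nor PTOV1-AS1 was listed with any of the 4 shRNAs. The microRNA gene MIR6800, which lies inside MED25, was not listed either, but whether the authors counted it is not known.

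On its other side, MED25 starts 903 bases from FUZ, a planar cell polarity effector needed for cilia, which is transcribed in the opposite direction. The authors' deposited table of MED25 shRNA A had FUZ at −0.77, rank 416 of 786, and was not listed with MED25 shRNA B, where MED25 was lower. Of the 30 nearest annotated neighbours of MED25, MED22 and MED21, 5 on each side of each, FUZ alone was listed. Over the 10 protein-coding ones this is 1, where 3.44% of annotated protein-coding genes were listed with MED25 shRNA A. A single gene is thus no result about these neighbours. Neighbours that the authors' annotation lacked could not have been listed, and the sources used here do not give that annotation. The RefSeq promoter window of MED25, 250 bases before to 50 after its start, covers the part of the stretch between both genes that adjoins MED25. It is shown because MED25 and FUZ were both listed with MED25 shRNA A, and because MED25 was listed with neither ETV4 shRNA. MED25 is the target of the MED25 shRNAs, and no link between this window and any of these listings was tested. The sequence is from RefSeq on GRCh38.p14, chr19:49818039-49818338, plus strand, and capitals mark the ETS core GGAA on either strand.
MED25 promoter: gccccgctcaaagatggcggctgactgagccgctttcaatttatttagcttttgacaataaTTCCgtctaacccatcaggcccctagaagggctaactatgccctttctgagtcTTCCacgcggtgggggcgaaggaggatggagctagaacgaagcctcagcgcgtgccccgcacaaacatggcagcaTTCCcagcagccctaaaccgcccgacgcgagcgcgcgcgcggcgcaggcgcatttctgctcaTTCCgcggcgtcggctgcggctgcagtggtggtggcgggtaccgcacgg
The core GGAA matched 4 times, all on the minus strand, and 95.5% of the 35116 RefSeq promoter windows hold it. The longer ETS forms CCGGAAG, found in 10.3% of windows, and GGAAGT, found in 22.8%, had no match on either strand. The AP-1 motif TGANTCA, in 7.71% of windows, and the TATA motif TATAAA, in 11.5%, had no match either. These matches describe letters in this window and not bound sites.

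MED22 (ENSG00000148297, chromosome 9), the head subunit also known as SURF5, was listed with MED25 shRNA A alone. The authors' deposited table gave −0.64 for it, or 64.2% of the control level. Its rank was 630 of 786, between the ribosomal protein gene RPL10 and NHSL1, both at −0.64 in the authors' deposited table. MED22 was thus close to the listing limit, with 80.2% of the table at or below its ratio.

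Missing from the table of shRNA B was the usual case for genes with a ratio near that of MED22. Of the 223 other genes within 0.05 of its log2 ratio in the authors' deposited table of shRNA A, 191 were not listed with shRNA B and 32, or 14.3%, were. Of all other genes of the table, 153 of 785 genes, or 19.5%, were listed with shRNA B as well. For MED25 in the table of shRNA A, 19 of 72 genes within the same distance, or 26.4%, were listed with shRNA B too. These shares describe the tables and do not show whether MED22 changed with shRNA B.

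No gene next to MED22 was listed. Its neighbours in the surfeit cluster include the ribosomal protein gene RPL7A, which starts 83 bases away in the opposite direction, and SURF6, a nucleolar protein gene. A processed pseudogene, AL772161.1, lies inside MED22 on the other strand and matched MED22 transcripts over 476 bases at 100% identity. Matches were sought on both strands, and the strand of each was not kept. A stretch of 564 bases of annotated MED22 transcripts was 91.0% identical to RPL21, a ribosomal protein gene. Reads from that stretch could be shared with RPL21 and its copies, depending on how the authors counted, so the value of MED22 is uncertain. RPL21 itself was listed with none of the 4 shRNAs. In all, MED22 transcripts had stretches of at least 100 bases at 90% identity or more with 129 other annotated genes. Of these, 9 were listed in some table, with longest matches of 178 to 284 bases. Single tables listed 0.456% to 3.44% of annotated protein-coding genes, and no share over the 4 together was computed. The 9 are therefore no result about genes that share such stretches with MED22 transcripts.

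MED21 (ENSG00000152944, chromosome 12), the middle subunit that pairs with MED7, was listed with ETV4 shRNA B alone. It was at −0.61 in the authors' deposited table, or 65.3% of the control level. Its rank was 88 of 98, between PRRG4 at −0.62 and the neuronal growth regulator NEGR1 at −0.61 in the authors' deposited table. In this table of 98 genes, 89.8% were at or below the ratio of MED21, so its decrease was among the smallest.

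Of the 28 other genes within 0.05 of MED21 on the log2 scale in the authors' deposited table of ETV4 shRNA B, 10 were also listed with ETV4 shRNA A and 18 were not. That share of 35.7% compares with 58.8%, or 57 of 97, over all other genes of the table. Absence with shRNA A was thus the commoner case near the ratio of MED21. None of its annotated neighbours was listed, including TM7SF3 and the Integrator subunit gene INTS13. The long noncoding gene AC092747.4 lies within MED21 on the same strand and was not listed, but whether the authors counted it is not known. Transcripts of MED21 had no stretch of 100 bases at 90% identity with another annotated gene.

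**Figure D3:**
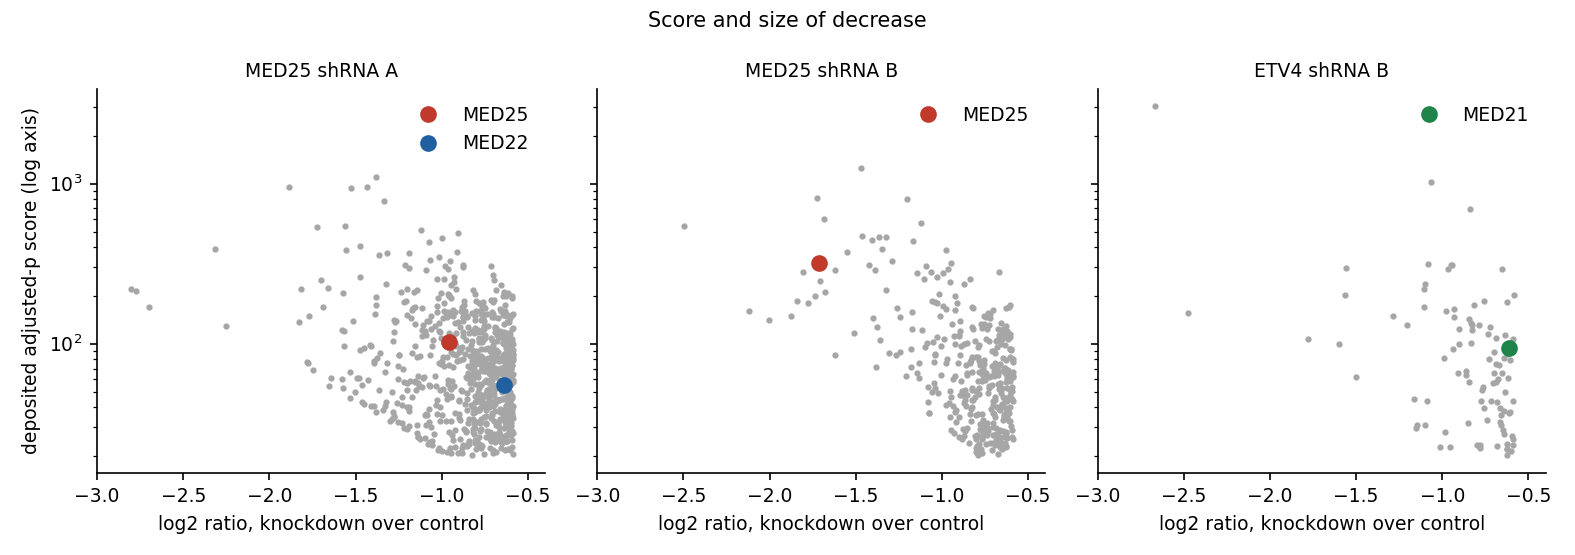
Deposited adjusted-p score (log axis) against log2 ratio of knockdown over control for all genes of the 3 tables that list MED25, MED22 or MED21, each coloured. With MED25 shRNA A, MED25 and MED22 lie amid the cloud of genes, and with ETV4 shRNA B, MED21 has one of the higher scores among genes of similar ratio.

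The authors' score, named an adjusted p in the file headers but above 20 in every row, ordered the 3 genes differently from their ratios. In the authors' deposited tables the score of MED25 was 102 for shRNA A and 318 for shRNA B. MED22 had 55.1, and MED21, with the ratio nearer 0, had 93.8 in the authors' deposited tables. These scores of MED22 and MED21 come from comparisons with different controls and may not be on a like footing. Within 0.05 of its ratio, MED22 was exceeded in score by 117 of 223 genes and MED25 with shRNA A by 34 of 72. MED21 was exceeded by 5 of 28, against a median score of 37.0 for those genes in the authors' deposited table. By score, MED21 ranked 39 of 98, ahead of its place by ratio.

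**Figure D4:**
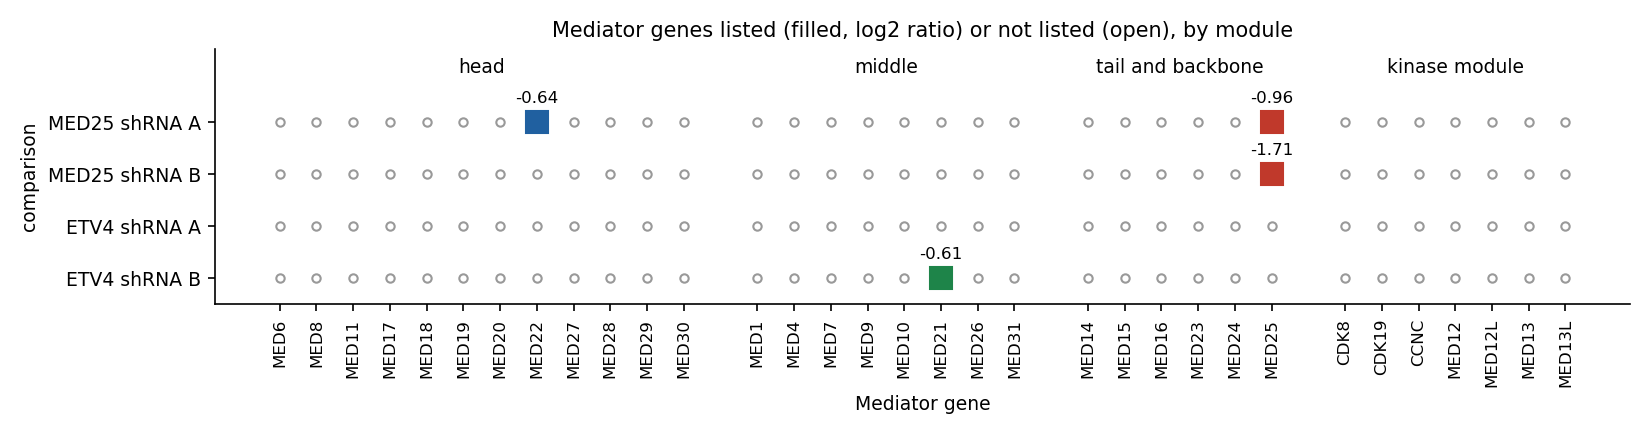
The 33 Mediator genes by module (horizontal) in each of the 4 comparisons (vertical), with a filled square and the log2 ratio where the gene is listed and an open circle where it is not. The squares show MED25 with both MED25 shRNAs, MED22 with MED25 shRNA A and MED21 with ETV4 shRNA B.

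The other 30 of the 33 Mediator genes examined were in no table. By module, 1 of 12 head genes, 1 of 8 middle genes, 1 of 6 tail and backbone genes and 0 of 7 kinase module genes were listed with any shRNA. The tail gene is MED25, the target of its shRNAs. These counts pool the 4 comparisons, for which no joint background was computed, so they are no result about the modules. With MED25 shRNA A, 2 of the 33 were listed, and 3.44% of annotated protein-coding genes were. Without the target this is 1 of 32, or 3.12%, near that background. With MED25 shRNA B, 1 of the 33 was listed, the target itself, and the background was 1.61%. With ETV4 shRNA A none of the 33 was listed at a background of 2.17%, and with ETV4 shRNA B 1 of the 33, or 3.03%, at a background of 0.456%. The sources used here do not give how many genes the authors tested, so these backgrounds use all 19951 annotated protein-coding genes and would be higher over expressed genes alone. Apart from the target, each of the 4 tables held at most 1 Mediator gene, which was not tested against the background.

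Other parts of the transcription machinery were counted in the same way. Of 33 general transcription factor genes, TAF4B and TAF8, both encoding subunits of TFIID, were listed. This is 1 of 33, or 3.03%, with MED25 shRNA A at a background of 3.44%, and 2 of 33, or 6.06%, with shRNA B at a background of 1.61%. For TAF4B the authors' deposited tables gave −0.995 after MED25 shRNA A and −0.86 after MED25 shRNA B. It was thus listed with both MED25 shRNAs, as MED25 was, while with shRNA A its ratio was slightly lower than that of MED25. TAF8 was at −0.64 with MED25 shRNA B alone in the authors' deposited table. None of the 12 RNA polymerase II subunit genes and none of the 20 pausing and elongation factor genes was listed with any shRNA. The backgrounds were 3.44% and 1.61% with MED25 shRNAs A and B, and 2.17% and 0.456% with ETV4 shRNAs A and B. In lists this short, a count of 0 is therefore no result about these genes.

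Of 17 coactivator and cohesin genes, 2, or 11.8%, were listed, both with MED25 shRNA A alone, at the background of 3.44%. The coactivator gene PPARGC1B was at −0.72, and SMC3, a core subunit of cohesin, at −0.65 in the authors' deposited table. The remaining list held PTOV1 and 7 activators known to bind MED25. Of its 8 genes, SOX9, a factor of cartilage and epithelial progenitors, had −0.70 and ETV1 −0.64 in the authors' deposited table of MED25 shRNA A. These 2 of 8 compare with the same background of 3.44%, and neither was listed with shRNA B. None of these differences from the background was tested. ETV4 was listed with its own shRNAs and with neither MED25 shRNA. ETV5, ATF6, RARA and HNF4A were in no table.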

How the data were processed

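RNA-seq of 17 libraries was represented by 4 deposited tables, in each of which the authors compared 1 shRNA with its control. The submitters' processing notes name Novoalign 3.08.02 and hg19. The sources used here do not give the counter, its use of strand, the annotation, the scaling or the test. Per the file headers, the authors deposited a log2 ratio and an adjusted p, which was treated as a score of unstated scale. Headers name 2 library numbers, read as first over second. The number shared by both tables of a target was taken as the control, and MED25 ratios were turned round to knockdown over control. With this reading every listed gene was lower.

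The 3 genes were matched by symbol, and 1350 of 1400 listed genes matched GENCODE 29 by Ensembl identifier. That annotation is on a later build than hg19 and served for gene types, neighbours and distances. The genes and lists were chosen with earlier results of these data known, and no test was run. Other genes named are listed members of the gene lists, rank neighbours, the 5 genes closest to MED25 among those listed with both MED25 shRNAs and no ETV4 shRNA, listed genes among 5 annotated neighbours on each side, and NOG, FOXL1, JUN and FN1, chosen after their values were seen, as were the other genes named from positions next to or matching those of MED25, MED22 and MED21. Shared sequence was sought with blastn 2.17.0+. Computations used Python 3.11.15, pandas 2.3.3, numpy 2.4.6 and matplotlib 3.10.9, and the distance and window steps were tested on simulated data. The alternatives kept only genes with an absolute log2 ratio of 1 or more, kept only scores of 50 or more, or used matching by Ensembl identifier, protein-coding genes alone and ranking by score.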

Additional observations from a re-analysis of the deposited data

How the results depend on the processing

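Among genes with an absolute log2 ratio of at least 1, the number of the 3 genes listed was 0 in place of 2 with MED25 shRNA A and 0 in place of 1 with ETV4 shRNA B, as was the number of Mediator genes. MED25 with shRNA B was the one that stayed. This follows from the minimum itself, since the ratios left out lie nearer 0. Both counts stayed as they were with a score of at least 50, matching by Ensembl identifier or protein-coding genes alone. That too follows from the 3 genes themselves. Their lowest score was 55.1, all are protein-coding, and their identifiers match their symbols. The unchanged counts are therefore no check of the result. By score, MED25 ranked 17 of 374 with shRNA B and MED21 39 of 98, against 10 and 88 by ratio. With a score of at least 50, MED21 ranked 58 of 61. No paired analysis was possible because the tables hold no library-level values, and leaving out replicates was not run for the same reason. Depth and replicate error are unknown.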
